A study of Rattus norvegicus with 12 samples.

Results

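Macrophage marker genes were followed in bulk RNA-seq of cultured neonatal rat ventricular myocytes (NRVMs). The set held 10 genes listed by symbol, which were Cd68, Csf1r, Adgre1, Cd163, Mrc1, Ptprc, Cd74, Lyz2, C1qa and C1qb. Members were the rows of the count and FPKM tables with one of these symbols. Among the 18483 genes of the tables, 9 of the 10 members had a row. Cd163, a scavenger receptor for haemoglobin bound to haptoglobin, had none. A filter on low counts kept 13967 genes for testing, among them 8 members, and left out C1qb.

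All cells came from Sprague-Dawley rats, and all were transfected. The siNeg group received a control siRNA and no further treatment, and the siNeg PE group received the same siRNA and then phenylephrine (PE), an alpha-1 adrenergic agonist that makes cardiac myocytes grow. The siSlc39a2 and siSlc39a2 PE groups received an siRNA of 1 sequence against Slc39a2, a zinc importer of the plasma membrane, without and with PE. By the sample labels, PE began 12 h after transfection and lasted 36 h, whereas the methods of the study give a longer PE treatment. There were 3 biological replicates in each group. Myocytes had been separated from other heart cells by density centrifugation of digested ventricles, so any macrophages were cells that the separation left behind. The comparisons ask whether the RNA of such cells differed between the 4 groups.

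Total counts were between 24065539 and 28603854 per sample, and 3 counts, the fewest taken as detected, equalled 0.102 to 0.118 CPM. CPM are the deposited expected counts scaled to the normalised library size of each sample. The knockdown was present in every sample. Slc39a2 was at 2.07 ± 0.229 CPM (SD, n = 3) in siNeg and 0.392 ± 0.325 CPM in siSlc39a2, and at 5.71 ± 1.92 CPM in siNeg PE and 1.13 ± 0.260 CPM in siSlc39a2 PE, with no overlap in either pair. It fell by 2.35 on the log2 scale without PE (SE 0.46, edgeR adjusted p = 9.8e-04) and by 2.33 with PE (SE 0.38, edgeR adjusted p = 2.24e-04). Cardiomyocyte markers were high, as the label of the cultures states. The summed FPKM of 10 of them was 15630 ± 908 to 18580 ± 1160 across the groups.

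Macrophages are phagocytes of the innate immune system, and the heart holds a resident population from before birth beside cells that arise later from blood monocytes. Their survival depends on the receptor Csf1r and its ligands Csf1 and Il34, and their gene expression on the transcription factor PU.1, which is encoded by Spi1 and binds purine-rich sites around the core GGAA. The members cover different roles. Ptprc (CD45) marks all nucleated blood cells, Csf1r and Adgre1 (F4/80) mark the macrophage lineage, Cd68 sits in lysosomes, Lyz2 is a secreted lysozyme, Mrc1 is a mannose receptor, C1qa and C1qb encode chains of complement C1q, and Cd74 is the invariant chain that escorts MHC class II molecules.

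Promoters of members are shown because the values below set genes that fell together (Lyz2, Cd68) beside one that passed no test (Adgre1). They are the 250 bases before the annotated start, from RefSeq, on build GRCr8 and read on the gene's own strand. Capitals mark AGGAAGT and GAGGAA or, on the opposite strand, ACTTCCT and TTCCTC, which are parts of the sites that PU.1 prefers.
Lyz2, chr7:54798012-54798261, minus strand: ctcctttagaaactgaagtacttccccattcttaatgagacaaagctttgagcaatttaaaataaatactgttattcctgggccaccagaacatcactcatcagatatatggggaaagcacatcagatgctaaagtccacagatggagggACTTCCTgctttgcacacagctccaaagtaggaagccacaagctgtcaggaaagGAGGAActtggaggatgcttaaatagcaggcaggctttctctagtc
Cd68, chr10:54882442-54882691, minus strand: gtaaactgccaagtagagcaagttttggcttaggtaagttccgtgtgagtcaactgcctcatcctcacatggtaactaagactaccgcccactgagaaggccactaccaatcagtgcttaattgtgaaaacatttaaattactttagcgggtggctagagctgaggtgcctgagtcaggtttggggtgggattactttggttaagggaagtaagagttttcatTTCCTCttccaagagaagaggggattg
Adgre1, chr9:2329190-2329439, plus strand: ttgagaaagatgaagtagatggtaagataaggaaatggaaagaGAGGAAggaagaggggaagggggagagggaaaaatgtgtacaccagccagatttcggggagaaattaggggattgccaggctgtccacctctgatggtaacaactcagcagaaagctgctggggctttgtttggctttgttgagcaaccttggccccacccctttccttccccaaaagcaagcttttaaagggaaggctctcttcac

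All 10 members had a promoter among the 33469 in the RefSeq table. On either strand, GAGGAA stood in 8 of 10 member promoters, against 23.3% of all promoters, and was missing in C1qa and Cd163. AGGAAGT stood in 4 of 10 (C1qb, Lyz2, Ptprc and Mrc1), against 7.08% of all. The longer GAGGAAGT, which joins both, stood in 0 of 10, against 2.04% of all. TATAAA was in none of the members, against 12.9%. TTCNNNGAA, a STAT-type site, was in C1qa alone, against 7.67%, and CCAAT in 5 of 10, against 34.02%. The motifs were chosen after values had been seen, share letters with each other, and describe sequence only.

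Levels between genes were compared in FPKM (fragments scaled to transcript length and to the number of mapped fragments). In siNeg, Lyz2 was highest at 65.7 ± 17.5 FPKM (SD, n = 3), followed by Cd74 at 30.8 ± 3.15 FPKM and Cd68 at 8.0 ± 0.910 FPKM. Csf1r (1.75 ± 0.250 FPKM) and C1qa (1.74 ± 0.178 FPKM) overlapped. Adgre1 stood below them at 0.577 ± 0.141 FPKM, and Mrc1 (0.223 ± 0.0971 FPKM), C1qb (0.197 ± 0.137 FPKM) and Ptprc (0.110 ± 0.0458 FPKM) overlapped at the bottom. The order at the top changed in siSlc39a2 PE alone, where Cd68 (3.31 ± 0.178 FPKM) stood above Cd74 (2.25 ± 0.280 FPKM) with no overlap.

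The summed FPKM of the 9 members was 109 ± 19.4 (SD, n = 3) in siNeg and 47.8 ± 7.78 in siNeg PE. It was 63.1 ± 9.78 in siSlc39a2 and 31.1 ± 2.78 in siSlc39a2 PE. The 4 groups did not overlap except for siNeg PE (39.3 to 54.6) and siSlc39a2 (53.8 to 73.3). Lyz2 and Cd74 made up 82.9% to 88.5% of the sum. Without both, the sums were 12.6 ± 1.21, 7.60 ± 0.446, 9.22 ± 0.0551 and 5.31 ± 0.347 FPKM in the same order, and none of the 4 groups overlapped. Cd68 alone held most of these smaller sums, at 8.0, 4.52, 5.92 and 3.31 FPKM. With the FPKM of every sample rescaled to the same total, the sums of all 9 rose to 175, 79.4, 103 and 53.3 in the same order of groups, with siNeg still highest. In bulk RNA, fewer macrophages, less of these RNAs per macrophage and less of them from other cells cannot be told apart.

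**Figure D1:**
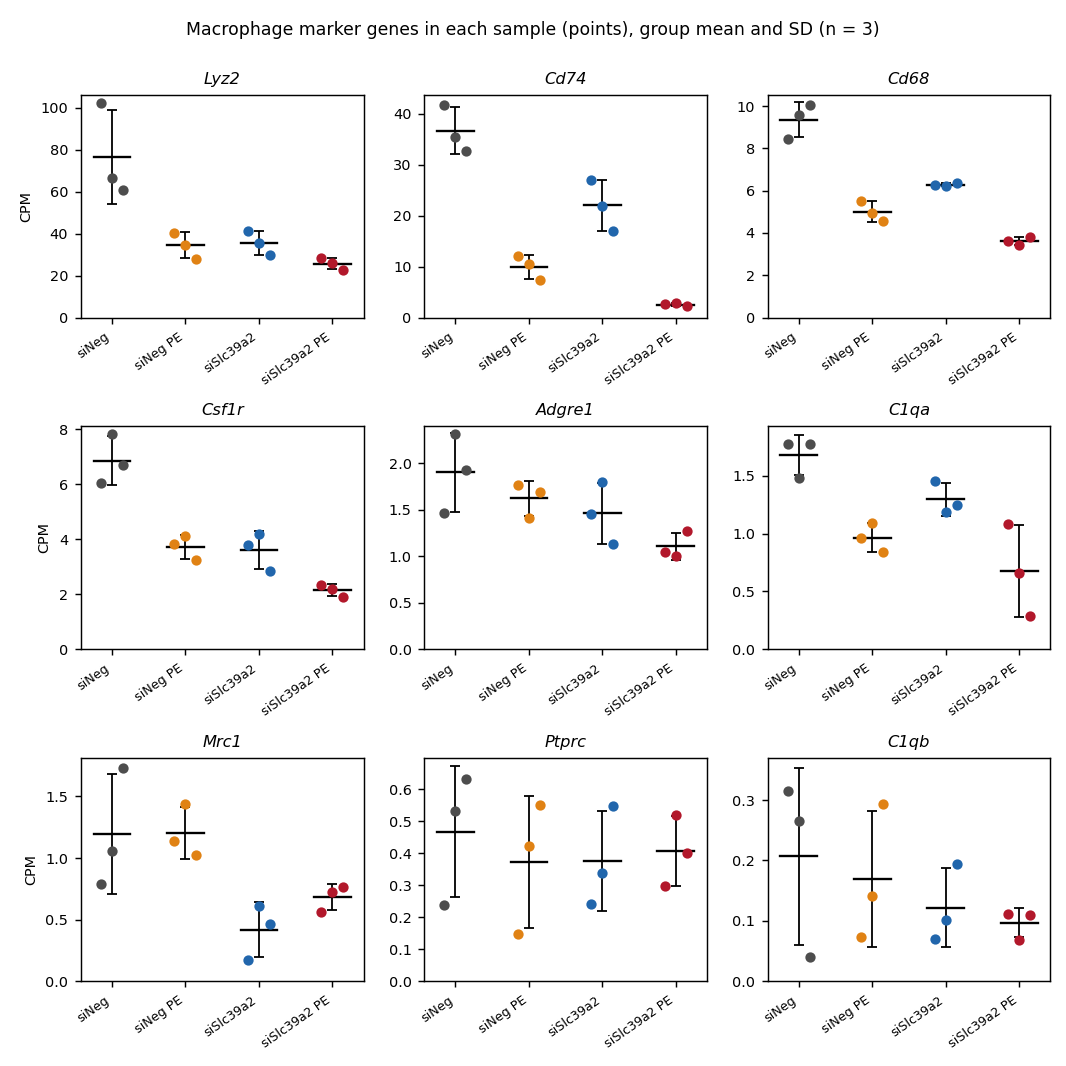
CPM of the 9 members with a row in each of 12 samples, one panel per gene with its own linear axis from 0; points are samples, and bars are the group mean with SD (n = 3). Lyz2, Cd74, Cd68 and Csf1r were highest in siNeg and lowest in siSlc39a2 PE, while the groups of Ptprc and C1qb overlapped.

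Lineage genes were described first. Csf1r, the receptor for Csf1 and Il34, was at 6.06, 7.81 and 6.71 CPM in siNeg, at 3.84, 4.11 and 3.24 CPM in siNeg PE, at 3.81, 4.19 and 2.85 CPM in siSlc39a2 and at 2.33, 2.20 and 1.92 CPM in siSlc39a2 PE. Every siNeg sample lay above all others, every siSlc39a2 PE sample lay below all others, and the 2 middle groups overlapped. Csf1r fell with knockdown without PE by 0.92 on the log2 scale (SE 0.17, edgeR adjusted p = 6.25e-04) and with PE by 0.79 (SE 0.18, edgeR adjusted p = 0.0022). It fell with PE in siNeg cells by 0.88 (SE 0.17, edgeR adjusted p = 0.00113) and in siSlc39a2 cells by 0.75 (SE 0.18, edgeR adjusted p = 0.00298).

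Adgre1, an adhesion receptor of mature macrophages, was at 1.46, 2.31 and 1.93 CPM in siNeg, 1.77, 1.41 and 1.69 CPM in siNeg PE, 1.45, 1.80 and 1.13 CPM in siSlc39a2, and 1.04, 1.00 and 1.27 CPM in siSlc39a2 PE. The groups overlapped except siSlc39a2 PE, which lay below siNeg and below siNeg PE. No comparison passed the test. The 95% interval of the knockdown difference was -0.88 to 0.12 on the log2 scale without PE and -1.07 to -0.03 with PE (edgeR adjusted p = 0.196 and 0.0649). The interval for PE was -0.73 to 0.27 in siNeg and -0.92 to 0.12 in siSlc39a2 cells (edgeR adjusted p = 0.418 and 0.162).

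Ptprc, the phosphatase of all white blood cells, was at 0.237, 0.531 and 0.631 CPM in siNeg, 0.147, 0.422 and 0.550 CPM in siNeg PE, 0.242, 0.339 and 0.546 CPM in siSlc39a2, and 0.298, 0.517 and 0.400 CPM in siSlc39a2 PE. These levels came from 4 to 16 counts per sample, and all 4 groups overlapped. With so few counts the 95% intervals were wide, from -1.37 to 0.72 on the log2 scale for knockdown without PE and from -1.36 to 0.73 for PE in siNeg. A change of the size seen in Csf1r lay within both intervals and was not detectable at this depth.

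Cd68, a glycoprotein of lysosomes and endosomes, was at 8.42, 9.58 and 10.1 CPM in siNeg, 5.52, 4.95 and 4.55 CPM in siNeg PE, 6.29, 6.21 and 6.37 CPM in siSlc39a2, and 3.64, 3.45 and 3.83 CPM in siSlc39a2 PE. None of the groups overlapped. It fell in all 4 comparisons, with knockdown by 0.58 (SE 0.11, edgeR adjusted p = 0.00103) and with PE in siNeg cells by 0.90 on the log2 scale (SE 0.11, edgeR adjusted p = 6.31e-05). Under PE the knockdown difference was -0.46 (SE 0.12, edgeR adjusted p = 0.00527), and PE in siSlc39a2 cells gave -0.79 (SE 0.12, edgeR adjusted p = 1.33e-04).

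Lyz2, the lysozyme of macrophages and neutrophils, was at 102, 66.7 and 61.1 CPM in siNeg, 40.6, 34.6 and 28.2 CPM in siNeg PE, 41.5, 35.6 and 29.9 CPM in siSlc39a2, and 28.4, 26.0 and 22.9 CPM in siSlc39a2 PE. The siNeg samples lay above all others, siNeg PE overlapped both siSlc39a2 and siSlc39a2 PE, and siSlc39a2 lay above siSlc39a2 PE. In every group the values fell from replicate 1 to 3. Within each replicate number siSlc39a2 lay above siNeg PE, and siNeg PE above siSlc39a2 PE. Lyz2 fell by 1.10 on the log2 scale with knockdown (SE 0.19, edgeR adjusted p = 4.08e-04) and by 1.16 with PE in siNeg cells (SE 0.19, edgeR adjusted p = 4.26e-04). Without siNeg replicate 1, its highest sample, these values were -0.84 and -0.89, under the 1-unit limit on both. With PE present the knockdown difference was -0.42 (SE 0.19, edgeR adjusted p = 0.0783), and PE in siSlc39a2 cells gave -0.47 (SE 0.19, edgeR adjusted p = 0.0497).

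Mrc1, the mannose receptor CD206, was at 0.790, 1.06 and 1.73 CPM in siNeg and 1.14, 1.44 and 1.03 CPM in siNeg PE, against 0.173, 0.610 and 0.468 CPM in siSlc39a2 and 0.559, 0.724 and 0.764 CPM in siSlc39a2 PE. Every sample with the control siRNA lay above every sample with the Slc39a2 siRNA. Mrc1 fell by 1.51 on the log2 scale without PE (SE 0.40, edgeR adjusted p = 0.00697), from 20 to 44 counts per sample to 5 to 18, and the difference under PE was -0.81 (SE 0.37, edgeR adjusted p = 0.0757). For PE in siNeg cells the interval was -0.75 to 0.77 (edgeR adjusted p = 0.979). PE in siSlc39a2 cells gave 0.71, with an interval of -0.19 to 1.61 (edgeR adjusted p = 0.158).

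The C1q chains form a component that starts the classical complement pathway and is made largely by macrophages. C1qa was at 1.78, 1.48 and 1.77 CPM in siNeg, 0.958, 1.09 and 0.844 CPM in siNeg PE, 1.45, 1.19 and 1.25 CPM in siSlc39a2, and 1.08, 0.655 and 0.291 CPM in siSlc39a2 PE. The siNeg PE samples lay below those of siNeg and siSlc39a2, and siSlc39a2 PE spread across the widest range. C1qa fell with PE in siSlc39a2 cells by 0.94 (SE 0.33, edgeR adjusted p = 0.0275), where the value without siSlc39a2 PE replicate 3 was -0.58 and did not pass. With PE in siNeg cells the difference was -0.79 (SE 0.32, edgeR adjusted p = 0.053), and both knockdown differences lay within intervals that included 0.

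C1qb was near the floor. Replicates 1 to 3 of siNeg held 8, 7 and 1 counts, those of siNeg PE 2, 4 and 8, those of siSlc39a2 2, 3 and 5, and those of siSlc39a2 PE 3, 2 and 3. The summed counts were 16 (95% exact Poisson interval 9.15 to 26.0), 14 (7.65 to 23.5), 10 (4.80 to 18.4) and 8 (3.45 to 15.8) in that order. These intervals cover counting error only, and all of them overlapped.

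Cd74, the invariant chain of MHC class II, had the largest fold changes with PE among the tested members. It was at 41.8, 35.4 and 32.8 CPM in siNeg, 12.1, 10.5 and 7.29 CPM in siNeg PE, 27.1, 21.9 and 17.0 CPM in siSlc39a2, and 2.61, 2.85 and 2.23 CPM in siSlc39a2 PE. None of the groups overlapped. Knockdown lowered it by 1.66-fold without PE (log2 fold change -0.73, SE 0.18, edgeR adjusted p = 0.00464) and by 3.89-fold with PE (-1.96, SE 0.22, edgeR adjusted p = 1.1e-05). PE lowered it by 3.68-fold in siNeg cells (-1.88, SE 0.19, edgeR adjusted p = 1.09e-05) and by 8.61-fold in siSlc39a2 cells (-3.11, SE 0.22, edgeR adjusted p = 2.31e-07).

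The interaction, which is the knockdown effect with PE less that without, was -1.23 for Cd74 (SE 0.28, edgeR adjusted p = 0.0334). It lost the call when any of 9 of the 12 samples was left out, with adjusted p between 0.0534 and 0.0865 and values between -1.31 and -1.05. The other 7 tested members did not pass this test, and for Lyz2 the interaction was 0.68 (SE 0.27, edgeR adjusted p = 0.229).

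**Figure D2:**
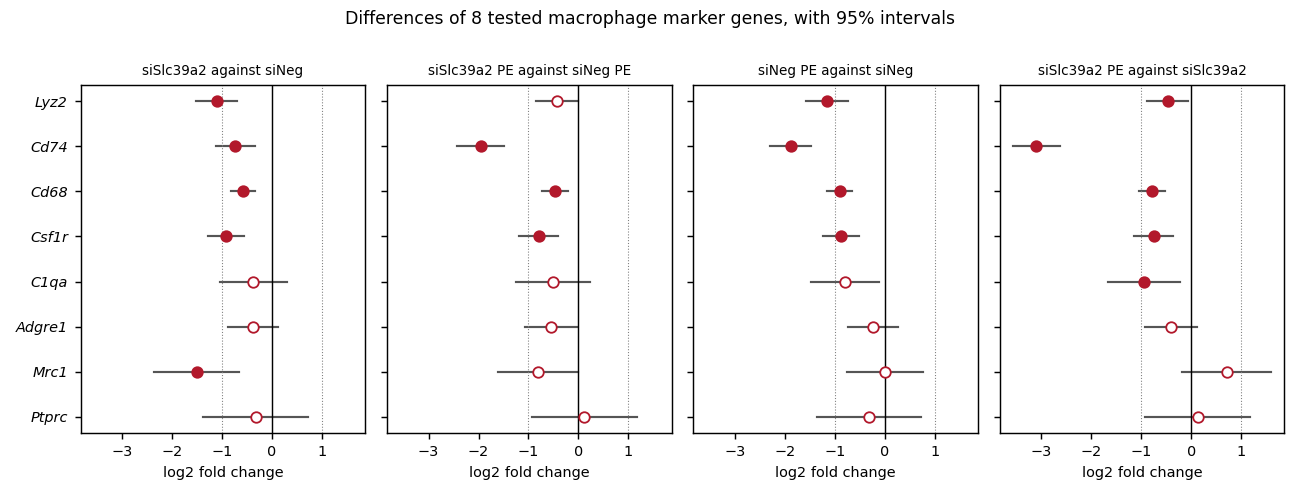
Log2 fold changes of the 8 tested members in 4 comparisons, with 95% intervals from edgeR; filled points had an adjusted p below 0.05, and dotted lines mark a log2 fold change of 1 in either direction. Cd74 lay at -3.11 for PE in siSlc39a2 cells, and the intervals of Ptprc included 0 throughout.

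Past both thresholds (adjusted p below 0.05 and a log2 fold change of more than 1 in size), 2 of 8 were lower with knockdown (Lyz2 and Mrc1), against 5.21% of all tested genes. With knockdown under PE 1 was lower (Cd74, against 5.58%), with PE in siNeg cells 2 (Lyz2 and Cd74, against 2.8%), with PE in siSlc39a2 cells 1 (Cd74, against 4.17%) and in the interaction 1 (Cd74, against 0.537%). By adjusted p alone, 5 of 8 were lower with knockdown (against 26.4% of all tested genes), 3 with knockdown under PE (28.1%), 4 with PE in siNeg cells (25.7%), 5 with PE in siSlc39a2 cells (29.3%) and 1 in the interaction (1.88%). No member passed higher in any of these. The median log2 fold change of the 8 was -0.65, -0.53, -0.84 and -0.61 in these 4 comparisons, beside -0.02, 0.01, -0.01 and 0.01 over all tested genes. Comparisons that share a group of samples are not independent of each other. Most of the passes by adjusted p belonged to Lyz2, Cd74, Cd68 and Csf1r, whose counts were not whole and are uncertain. Among Adgre1, Mrc1, Ptprc and C1qa, only Mrc1 with knockdown and C1qa with PE in siSlc39a2 cells passed.

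Other genes of macrophages did not all fall with the members. In 3 lists of myeloid signalling, tissue-resident and monocyte genes joined together, 62 of 84 genes were tested. With PE in siNeg cells 26 passed lower (41.9%, against 25.7% of all tested genes) and 1 higher (1.61%, against 24%), with a median of -0.59. With PE in siSlc39a2 cells 28 passed lower (45.2%, against 29.3%) and 3 higher (4.84%, against 30.7%), with a median of -0.58. Most genes of these lists that passed for PE were thus lower. With knockdown 18 passed lower (29.03%, against 26.4%) and 13 higher (21.0%, against 22.8%), with a median of -0.21. With knockdown under PE 15 passed lower (24.2%, against 28.1%) and 14 higher (22.6%, against 29.2%), with a median of -0.05. The knockdown shares lay near those of all tested genes and are no result about these lists. Some genes of the resident list, such as Cd36, Gas6 and Hmox1, are also made by heart muscle or stromal cells.

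Of the 34 tested myeloid signalling and lineage genes, 11 passed lower (32.4%) and 6 higher (17.6%) with knockdown, shares near the 26.4% and 22.8% of all tested genes, and 17 lower (50%, against 25.7%) and none higher with PE in siNeg cells. Trem2, a lipid receptor of macrophages, was at 2.85 ± 0.490 CPM (SD, n = 3) in siNeg and 0.638 ± 0.317 CPM in siSlc39a2, a fall of 2.13 on the log2 scale (SE 0.35, edgeR adjusted p = 2.69e-04). Cd37, a leukocyte tetraspanin, fell by 1.56 (SE 0.36, edgeR adjusted p = 0.00335). Mpeg1, the pore-forming perforin-2 of phagocytes, rose from 2.05 ± 0.439 to 6.59 ± 1.27 CPM (log2 fold change 1.68, SE 0.24, edgeR adjusted p = 8.9e-05). Spi1, singled out after its values were seen because it encodes PU.1, gave -0.43 with knockdown (SE 0.26, edgeR adjusted p = 0.184) and fell by 1.00 with PE in siNeg cells (SE 0.27, edgeR adjusted p = 0.00827).

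Of 15 tested scavenger and resident genes, 6 passed lower (40.0%, against 26.4% of all tested genes) and 3 higher (20.0%, against 22.8%) with knockdown. Stab1, a clearance receptor, fell from 1.36 ± 0.168 to 0.181 ± 0.0700 CPM (log2 fold change -2.89, SE 0.37, edgeR adjusted p = 3.31e-05). Siglec1, a sialic acid receptor that interferon induces, rose from 0.649 ± 0.0194 to 4.74 ± 0.563 CPM (2.86, SE 0.20, edgeR adjusted p = 1.06e-07), and Ms4a7 from 0.143 ± 0.0255 to 1.55 ± 0.434 CPM (3.40, SE 0.41, edgeR adjusted p = 2.41e-05). Lyve1, Vsig4, F13a1 and Clec10a, further markers of resident or alternatively activated macrophages, stayed at 3 counts or fewer in each sample, as did the fractalkine receptor Cx3cr1.

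Among 13 tested monocyte and inflammatory genes, 4 passed higher (30.8%, against 22.8% of all tested genes) and 1 lower (7.69%, against 26.4%) with knockdown, and 5 lower (38.5%, against 25.7%) and none higher with PE in siNeg cells. Fcgr3a, a receptor for antibody Fc, rose with knockdown from 0.169 ± 0.0249 to 2.25 ± 0.549 CPM (3.70, SE 0.37, edgeR adjusted p = 4.01e-06). Plac8 rose from 0.107 ± 0.103 to 0.926 ± 0.170 CPM (3.10, SE 0.50, edgeR adjusted p = 2.34e-04), from counts that were not whole and are uncertain. Tnf had between 0.04 and 462 counts in the siSlc39a2 samples and 0 to 7 in siNeg, and its counts were not whole either.

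**Figure D3:**
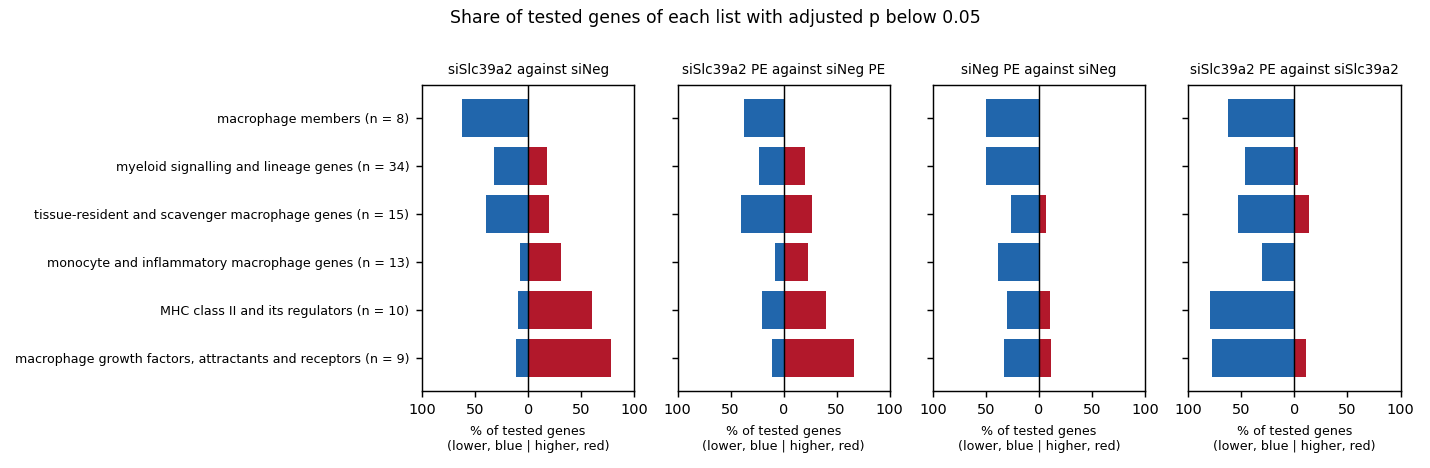
Share of the tested genes of 6 lists with an adjusted p below 0.05, in percent, to the left for lower and to the right for higher, in 4 comparisons; n is the number of tested genes. All passing members were lower. Most passing genes of the class II list and of the list of growth factors, attractants and receptors were higher with knockdown.

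Class II genes and Cd74 parted. A list of class II chains, their loading factors and regulators, which includes Cd74, had 10 tested genes. Of these genes, 6 passed higher with knockdown (against 22.8% of all tested genes) and 1, Cd74, lower (against 26.4%). RT1-Da, a class II alpha chain, had 2 counts over the 3 siNeg samples and 305 over the 3 siSlc39a2 samples, a ratio of 140 in CPM (95% exact interval from counting 38.4 to 1160). RT1-Ba had 3 and 362 counts (ratio 111, interval 37.6 to 539) and RT1-Db1 had 7 and 237 (ratio 31.0, interval 14.8 to 78.0). All siSlc39a2 samples lay above all siNeg samples in these 3 genes, with edgeR adjusted p of 7.43e-07, 6.15e-07 and 1.16e-07.

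In siSlc39a2 cells 8 of the 10 tested genes of this list passed lower with PE (80.0%, against 29.3% of all tested genes), Cd74 among them. RT1-Da fell by 2.61 on the log2 scale (SE 0.36, edgeR adjusted p = 6.32e-05), RT1-Ba by 2.70 (SE 0.35, edgeR adjusted p = 4.45e-05) and RT1-Db1 by 2.50 (SE 0.26, edgeR adjusted p = 6.53e-06). Ciita, the activator of class II and Cd74 transcription, was at 2.96, 2.65 and 2.96 CPM in siNeg, 2.54, 2.32 and 2.57 CPM in siNeg PE, 3.35, 3.01 and 2.61 CPM in siSlc39a2, and 0.932, 0.966 and 1.42 CPM in siSlc39a2 PE. The siSlc39a2 PE samples lay far below all others, and siNeg PE lay narrowly below siNeg and siSlc39a2. Ciita fell with PE in siSlc39a2 cells by 1.44 (SE 0.19, edgeR adjusted p = 5.05e-05), and its difference with PE in siNeg cells was -0.21 (SE 0.18, edgeR adjusted p = 0.353). Its knockdown difference was 0.07 without PE (SE 0.18, edgeR adjusted p = 0.762) and -1.16 under PE (SE 0.19, edgeR adjusted p = 2.43e-04). The interaction was -1.23 (SE 0.26, edgeR adjusted p = 0.0207), and it lost the call when any of 5 samples was left out. The class II chains did not follow Ciita with knockdown under PE and were higher there. The ratios in CPM were 12.2 for RT1-Da (95% exact interval from counting 4.47 to 46.5), 17.9 for RT1-Ba (5.81 to 89.5) and 8.15 for RT1-Db1 (3.22 to 26.4).

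**Figure D4:**
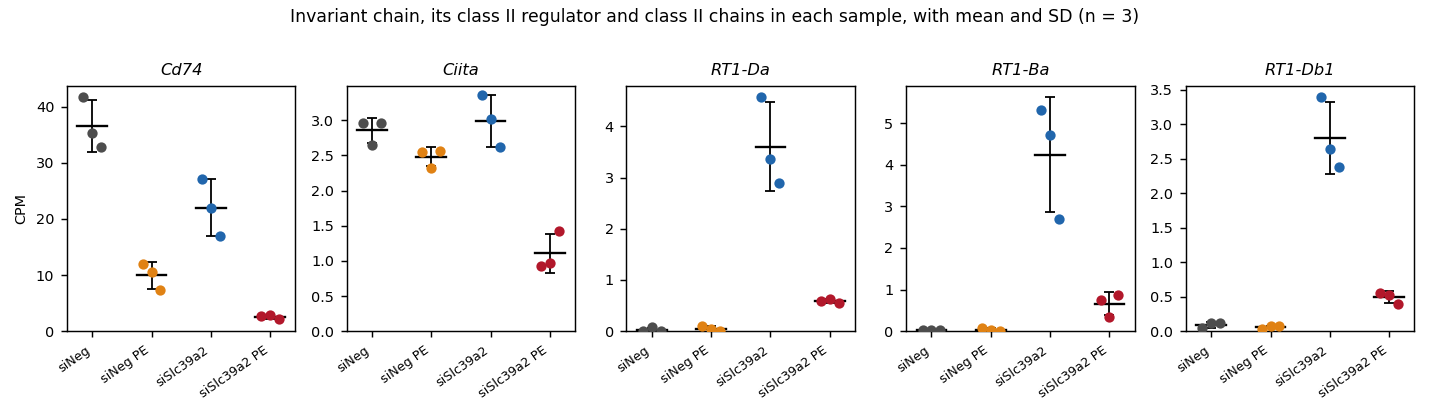
CPM of Cd74, Ciita and 3 class II chains in each sample on linear axes from 0; points are samples, and bars are the group mean with SD (n = 3). The class II chains were near 0 with the control siRNA and highest in siSlc39a2, whereas Cd74 was highest in siNeg.

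Of 9 tested growth factors, attractants and receptors of macrophages, 7 passed higher with knockdown (77.8%, against 22.8% of all tested genes). Only 1 passed lower (11.1%, against 26.4%). With PE in siSlc39a2 cells 7 passed lower (77.8%, against 29.3%) and 1 higher (11.1%, against 30.7%). Csf1 and Il34, the ligands of Csf1r, were singled out for this role after their values were seen. Csf1 was at 269 ± 4.78 CPM (SD, n = 3) in siNeg, 170 ± 7.26 CPM in siNeg PE, 508 ± 47.4 CPM in siSlc39a2 and 317 ± 16.4 CPM in siSlc39a2 PE. It rose with knockdown by 0.92 (SE 0.07, edgeR adjusted p = 3.34e-07), where its receptor fell by 0.92, and it fell with PE by 0.66 (SE 0.07, edgeR adjusted p = 1.71e-05). Il34 rose by 0.90 with knockdown (SE 0.24, edgeR adjusted p = 0.00712) and fell by 1.04 with PE in siNeg cells (SE 0.27, edgeR adjusted p = 0.00718).

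The monocyte attractant Ccl2 rose from 27.5 ± 1.40 CPM in siNeg to 521 ± 22.2 CPM in siSlc39a2 (log2 fold change 4.24, SE 0.07, edgeR adjusted p = 1.24e-13). Ccl7 rose from 5.30 ± 0.402 to 168 ± 16.4 CPM (4.98, SE 0.11, edgeR adjusted p = 1.6e-12). Ccl12 had 0 counts in every siNeg sample and 89 over the siSlc39a2 samples, at least 9.06-fold higher against a floor of 3 counts per library.

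Lysosomal genes, of which Cd68 is one outside the list, fell in part. With knockdown 11 of 16 passed lower (68.75%, against 26.4% of all tested genes) and 1 higher (6.25%, against 22.8%). With PE in siNeg cells 9 passed lower (56.25%, against 25.7%) and 2 higher (12.5%, against 24%). Gusb, a lysosomal glucuronidase, fell by 1.04 with knockdown (SE 0.08, edgeR adjusted p = 2.17e-07). These genes are active in every cell type.

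Markers of other cells moved with the groups as well, and their part in the members' differences was not tested. Of 10 fibroblast genes, 8 passed lower and 1 higher with knockdown, and 6 lower and 2 higher with PE in siNeg cells. The summed FPKM of the fibroblast list ranged from 2548 to 3472 in siNeg, 1834 to 2384 in siNeg PE, 1124 to 1230 in siSlc39a2 and 749 to 1050 in siSlc39a2 PE. Collagens held most of it, with Col1a1 at 1779 ± 291 FPKM and Col3a1 at 717 ± 160 FPKM in siNeg. Dpt fell by 2.04 with knockdown (SE 0.12, edgeR adjusted p = 3e-08), Col1a2 by 1.69 (SE 0.10, edgeR adjusted p = 2.17e-08) and Col1a1 by 1.68 (SE 0.13, edgeR adjusted p = 4.91e-07). Tcf21 and Pdgfra, singled out after their values were seen, did not fall with knockdown. Tcf21 was at 27.4 ± 0.662 CPM in siNeg and 34.7 ± 1.36 CPM in siSlc39a2, and Pdgfra at 41.2 ± 5.37 and 44.7 ± 4.21 CPM. The members' sum was higher in siSlc39a2 than in siNeg PE on average, where the fibroblast sum was lower, but the members' sums overlapped. In CPM the members differed on this. Cd74, Cd68 and C1qa lay higher in siSlc39a2 than in siNeg PE, Mrc1 lay lower, and the other members with a row overlapped.

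Endothelial genes passed lower in 4 of 8 tested with knockdown, among them Tie1 (-1.24, SE 0.46, edgeR adjusted p = 0.0383) and Eng (-1.01, SE 0.08, edgeR adjusted p = 3.65e-07). Their summed FPKM was 71.0 ± 2.63 in siNeg and 40.9 ± 1.62 in siSlc39a2, of which Eng alone held 64.5 ± 2.65 and 35.3 ± 0.900. Kdr, Tek and Cdh5, receptors and a cadherin of endothelial cells singled out after their values were seen, did not pass, with knockdown differences of 0.11, 0.06 and 0.43 on the log2 scale (edgeR adjusted p = 0.618, 0.756 and 0.53). Pericyte and smooth muscle genes passed lower in 7 of 8 (87.5%, against 26.4%), with Notch3 at -1.52 (SE 0.14, edgeR adjusted p = 1.42e-06) and Cnn1 at -1.22 (SE 0.09, edgeR adjusted p = 1.59e-07). Of 10 cardiomyocyte genes 5 passed lower with knockdown, and Myh6, the alpha myosin heavy chain, fell by 1.10 (SE 0.09, edgeR adjusted p = 4.5e-07).

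Some markers of other blood cells were at or near 0, and others were detected. Cd3e and Cd247 of T cells, Cd79a and Blk of B cells, Gzmb and Prf1 of natural killer cells, and S100a9 and Mmp8 of neutrophils never exceeded 3 counts. Kit of the mast cell list, a growth factor receptor also found on other cells and singled out after its values were seen, was at 24.7 ± 3.21 CPM (SD, n = 3) in siNeg, and Mmp9 of the neutrophil list at 1.51 ± 0.346 CPM. The neutrophil list, whose cells also make Lyz2, had a row for 6 of its 9 genes. Their summed FPKM was 0.24 to 0.78 across the 12 samples. Whether neutrophils added to the Lyz2 RNA was not tested. Single genes of these lists moved, with Lck at 1.96 (SE 0.39, edgeR adjusted p = 0.00119), Hdc of mast cells at 1.79 (SE 0.27, edgeR adjusted p = 1.41e-04) and Mmp9 at -1.16 (SE 0.34, edgeR adjusted p = 0.0136) with knockdown. The 1 erythroid gene tested did not pass in any comparison.

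The genes whose pattern over the 12 samples lay nearest to each of 4 members were found by the root mean square (RMS) difference of log2 CPM after centring. Among the nearest to Cd74 were Dhrs7c (RMS 0.254) and Doc2g (0.270), against a spread of Cd74 around its own mean of 1.45. Dhrs7c, a dehydrogenase of the muscle sarcoplasmic reticulum, was at 186 ± 30.1, 65.3 ± 17.0, 138 ± 5.01 and 19.1 ± 1.02 CPM (SD, n = 3) in the siNeg, siNeg PE, siSlc39a2 and siSlc39a2 PE groups, far above Cd74 itself.

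Nearest to Csf1r were Dcxr (RMS 0.134), Fahd2a (0.150) and Amdhd2 (0.158), beside a spread of Csf1r of 0.603. Nearest to Lyz2 were Calml4 (0.180), C1qtnf4 (0.205) and Marchf2 (0.208), beside a spread of 0.614. C1qa stood nearest to Crmp1 (0.228), Ebi3 (0.242) and Zmiz2 (0.252), beside a spread of 0.623. None of these genes is on the macrophage lists. Other members lay further off by rank among the tested genes. The closest was Cd68 to Csf1r (RMS 0.238, rank 170) and to C1qa (0.393, rank 632). For Lyz2 and Cd74 it was Csf1r (0.283, rank 130, and 0.955, rank 394). The nearest genes were picked from all tested genes outside the members, so some would lie close whatever their role. Counting noise also sets members with few counts, such as Ptprc and Mrc1, further off. The ranks are therefore description only.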

How the data were processed

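NRVMs in 4 groups of 3 biological replicates were profiled by RNA-seq. For 18483 genes the authors deposited 2 tables, one of unnormalised expected counts and one of FPKM. HISAT, Bowtie2 and build Rnor_6.0 are named in the submitters' processing notes, and the counting program and annotation are not given in the sources used here. Counts were whole in every sample for 70.0% of genes and for 5 of the 9 members with a row. Those of Lyz2, Cd74, Cd68 and Csf1r were not, so some of their reads were split between genes and their levels are uncertain.

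Expected counts were rounded, filtered by filterByExpr, normalised by TMM and fitted over all 12 samples in edgeR 4.0.16 (R 4.3.3) with 8 residual degrees of freedom. Groups were compared by the quasi-likelihood test with Benjamini-Hochberg adjustment over 13967 genes. Calls needed an adjusted p below 0.05 and a log2 fold change of more than 1 in size, and "passed" refers to the adjusted p alone. The study names limma, with quantile-type normalization, without saying on which values, so limma 3.58.1 and DESeq2 1.42.0 were alternatives. FPKM were averaged for levels and sums. Tested on simulated data of the knockdown comparison, edgeR recovered 187 of 200 changed genes with 8 false calls among 13802 genes. In the measured samples far more genes, 6873 of 13967, passed in that comparison. Recovery of differences of the members' sizes was not tested.

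Named genes were all members, Slc39a2, the 3 called genes with the largest change with knockdown in each other list, and the 3 nearest patterns of Csf1r, C1qa, Cd74 and Lyz2, of which 1 is not reported here. Further genes are marked where they were singled out, apart from those at or near 0. The members and all 17 lists were chosen with earlier results of these data known. One symbol had been turned into a date by spreadsheet software, and its gene ID was matched to Marchf2. Replicate numbers were not used as pairs, because over all tested genes same-numbered samples did not deviate together in every pair. Lyz2 and the members' summed FPKM did fall from replicate 1 to 3 in every group.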

Additional observations from a re-analysis of the deposited data

Results flagged for a closer look

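In 5 named genes the knockdown effect differed between cells with and without PE, by the test of that difference itself in edgeR. The log2 interaction was -1.23 for Cd74 (adjusted p = 0.0334) and -1.23 for Ciita (adjusted p = 0.0207). It was -1.34 for Dhrs7c (adjusted p = 0.00462), which had been chosen for a pattern like that of Cd74, so its interaction is not independent of it. Cnn1, a smooth muscle gene, had the opposite sign at 1.71 and rose with PE by 2.57 in siNeg cells and by 4.29 in siSlc39a2 cells. Kit, on the mast cell list, gave -0.72 (adjusted p = 0.00971).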

How the results depend on the processing

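Members called in siSlc39a2 against siNeg numbered 2, and 1 by limma on log2(FPKM + 1) and on log2(FPKM + 0.1), and 5 by adjusted p alone. In siSlc39a2 PE against siNeg PE the count of 1 became 3 by adjusted p alone. In siNeg PE against siNeg the count of 2 became 1 by limma on log2(FPKM + 1), 4 on log2(count + 1) and 4 by adjusted p alone. In siSlc39a2 PE against siSlc39a2 the count of 1 became 2 by limma on log2(FPKM + 0.1), 2 on log2(count + 1) and 5 by adjusted p alone. The interaction count of 1 became 0 in all 3 limma fits. DESeq2, other size factors, no filter and a fit of the compared groups alone, where it could be made, left these counts within 1.5 times.

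Leaving out 1 sample gave 1 to 3, 1 to 2, 1 to 2, 1 to 2 and 0 to 1 members in the same order. Lyz2 was not called with knockdown without siNeg replicate 1 or siSlc39a2 replicate 3, nor with PE without siNeg replicate 1. C1qa was called in both comparisons of siSlc39a2 PE without siSlc39a2 PE replicate 1. Csf1r was called with knockdown without siSlc39a2 replicate 2.

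Signs turned in 14 single-gene values, none past the threshold. By limma they were -0.00608 for Ciita with knockdown (log2(count + 1)) and 0.0244 for C1qa in the interaction (log2(FPKM + 1)). Leaving out 1 sample gave -0.0191 to 0.21 for Ciita with knockdown, -0.25 to 0.50 for Ptprc with knockdown under PE, -0.21 to 0.38 for Mrc1 and -0.69 to 0.0576 for Ptprc with PE in siNeg cells, and -0.11 to 0.45 for Ptprc with PE in siSlc39a2 cells. In the interaction it gave -0.066 to 0.24 for Csf1r, -0.37 to 0.00243 for Adgre1 and -0.68 to 0.21 for C1qa. The causes were not tested.

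With the replicate number as a block, the counts of members called stayed at 2, 1, 2, 1 and 1. Calls by adjusted p were gained for Lyz2 and Mrc1 with knockdown under PE (-0.41 and -0.84), C1qa with PE in siNeg cells (-0.80) and Lyz2 in the interaction (0.68). Over all genes the block raised the interaction calls past both thresholds from 138 to 182 and those by adjusted p from 504 to 1053. Same-numbered samples correlated between -0.0904 and 0.32, and in no comparison did every sample correlate best with its own number. Depth limited C1qb, Ptprc, Mrc1 and C1qa, which had the fewest counts. The sums without Lyz2 and Cd74 and the values of Ciita were added after seeing the data.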
